A study of Mus musculus with 2 samples.

Results

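The genes described here are 10 members of the circuit by which interleukin-12 drives interferon-gamma, taken by symbol from the gene lists of both count tables: Ifng, Ifngr1, Ifngr2, Il12b, Il12rb1, Il12rb2, Il18, Stat4, Tbx21 and Eomes. They are 10 of the 31253 genes listed, and each symbol matched 1 row. The study took cells positive for CD45, a surface protein of blood-derived immune cells and microglia, from brains of C57BL/6 mice carrying GL261, a mouse glioma line injected into the brain, and profiled them by droplet-based 3' single-cell RNA sequencing. The mice of one library received 20 mg/kg of ibudilast into the stomach 5 times weekly over 2 weeks. Ibudilast is an inhibitor of phosphodiesterases and of the cytokine MIF. The other library came from tumour-bearing mice given PBS in the same way. One label of the PBS library reads "untreated", while its protocol names PBS. The labels give neither the number of mice behind a library nor whether mice were pooled.

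Interleukin-12 is a dimer of the subunits encoded by Il12b and Il12a, made mainly by dendritic cells and macrophages that have met a stimulus. It binds a receptor of the Il12rb1 and Il12rb2 chains on NK and T cells and acts through the transcription factor STAT4, and together with interleukin-18 it drives the interferon-gamma gene under the T-box factors T-bet (Tbx21) and eomesodermin (Eomes). Interferon-gamma binds a receptor of the Ifngr1 and Ifngr2 chains and makes macrophages and dendritic cells present antigen and release chemokines.

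The ibudilast library held 8483 barcodes and 82196922 UMIs (unique molecular identifiers, each counting 1 captured RNA molecule), the PBS library 8968 barcodes and 119113794 UMIs, and 19 barcode sequences occurred in both. After filtering, 6654 ibudilast cells and 7666 PBS cells were kept, with median depths of 7839.5 and 11647 UMIs. By their markers, none of which is a circuit gene, 5368 ibudilast and 6675 PBS cells were given to 16 immune classes. NK-cell-like cells numbered 297 in the ibudilast library and 134 in the PBS library, Cd8 T-cell-like cells 430 and 242, Cd4 T-cell-like cells 100 and 136, and Foxp3-positive regulatory T-cell-like cells 76 and 74. Migratory dendritic-cell-like (migratory DC-like) cells numbered 230 and 179, cDC1-like cells 177 and 127, cDC2-like cells 228 and 295, macrophage-like cells 2171 and 3987, microglia-like cells 104 and 273, and monocyte-like cells 1322 and 924. The labels do not say how the CD45-positive cells were isolated. They call them lymphocytes, but myeloid classes made up most of both libraries. Barcodes with markers of 2 lineages, 903 ibudilast and 774 PBS barcodes, were left out. They held 34.6% of all Ifng UMIs of the kept ibudilast cells and 48.0% of those of the kept PBS cells, so Ifng values below describe only the remainder unless these barcodes are named. Levels are UMIs per 1000000 UMIs of a class (CPM). Haemoglobin genes stood at 72.8 CPM in the ibudilast library and 7.65 CPM in the PBS library. There was 1 library per group and so no replicate: ratios of ibudilast to PBS compare these 2 libraries, and a treatment effect and a difference between libraries cannot be told apart. All intervals are exact 95% intervals for counting error alone and leave out differences among cells and mice.

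The 3 cytokine genes of the circuit sit on separate chromosomes of the build GRCm38. Ifng (ENSMUSG00000055170) lies at chr10:118441046-118445892 on the plus strand, Il12b (ENSMUSG00000004296) at chr11:44400063-44414033 on the plus strand, and Il18 (ENSMUSG00000039217) at chr9:50554827-50581840 on the plus strand, and all 3 are annotated as protein-coding. The 250 bases upstream of their RefSeq start sites (build GRCm38.p6, all on the plus strand) are shown because these genes carry the differences in source described below. Capitals mark matches, on either strand, to a TATA box (TATAAA), a gamma-activated site (TTCNNNGAA), a T-box half-site (GTGTGA), an AP-1 site (TGANTCA), a C/EBP half-site (TTGCAA), an ISRE core or a kappaB site.
Ifng, chr10:118440796-118441045: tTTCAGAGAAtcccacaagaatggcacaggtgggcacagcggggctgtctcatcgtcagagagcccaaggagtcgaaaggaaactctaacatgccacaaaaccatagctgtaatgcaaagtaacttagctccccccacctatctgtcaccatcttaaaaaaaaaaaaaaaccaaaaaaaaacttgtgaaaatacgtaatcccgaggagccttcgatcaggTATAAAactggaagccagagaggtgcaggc
Il12b, chr11:44399813-44400062: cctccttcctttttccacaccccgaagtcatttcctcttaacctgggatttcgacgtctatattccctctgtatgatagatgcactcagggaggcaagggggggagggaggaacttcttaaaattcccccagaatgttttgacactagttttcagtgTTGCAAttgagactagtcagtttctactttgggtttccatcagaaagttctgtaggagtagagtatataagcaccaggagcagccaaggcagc
Il18, chr9:50554450-50554699: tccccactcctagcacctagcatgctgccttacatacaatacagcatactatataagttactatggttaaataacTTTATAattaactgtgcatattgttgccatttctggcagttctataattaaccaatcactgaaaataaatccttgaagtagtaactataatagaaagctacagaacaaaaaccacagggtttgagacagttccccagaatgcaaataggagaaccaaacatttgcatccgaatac

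In the Ifng sequence the capitals are TTCAGAGAA, 249 to 241 bases before the start site, and TATAAA, 30 to 25 bases before it. The single match before Il12b is TTGCAA, 93 to 88 bases before the start site, and the single match before Il18 is TTTATA, the TATA box letters read on the minus strand, 175 to 170 bases before it. Among 32851 mouse promoters of this length, TATAAA occurred in 12.4%, TTCNNNGAA in 7.02%, GTGTGA in 12.3%, TGANTCA in 6.75%, TTGCAA in 5.34%, the ISRE core in 2.98% and the kappaB site in 0.283%. Il12rb2, the chain that makes the interleukin-12 receptor signal, has the gamma-activated site letters TTCTCAGAA 123 to 115 bases before its start site. They lie in the upstream stretch chr6:67376189-67376438, on the minus strand. The same stretch holds TCACAC, a T-box half-site on the opposite strand, 80 to 75 bases before the start.

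Il12b, the subunit that interleukin-12 shares with interleukin-23, was carried mainly by migratory DC-like cells, dendritic cells marked by Ccr7 and Fscn1. Their level was 225.6 CPM in the ibudilast library (356 UMIs, interval 203 to 250) and 271.7 CPM in the PBS library (387 UMIs, 245 to 300). These cells were 3.46% and 2.33% of the kept cells but held 53.1% (49.2 to 56.9) of the Il12b UMIs of gated immune cells in the ibudilast library and 54.7% (50.9 to 58.4) in the PBS library. The ratio was 0.830 (0.717 to 0.961), so the ibudilast level was the lower one in these libraries. It rested on few cells: 59 of 230 ibudilast cells (25.7%) and 52 of 179 PBS cells (29.1%) had an Il12b UMI. The 6 highest ibudilast cells and the 4 highest PBS cells held 50% of the class's UMIs, and the highest single cells had 44 and 89 UMIs. Without the 5 highest cells of each library the ratio was 1.11, on the other side of 1, and the shares of gated Il12b UMIs were 38.6% and 33.0%. With doublets kept the ibudilast share was 39.5%.

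**Figure D1:**
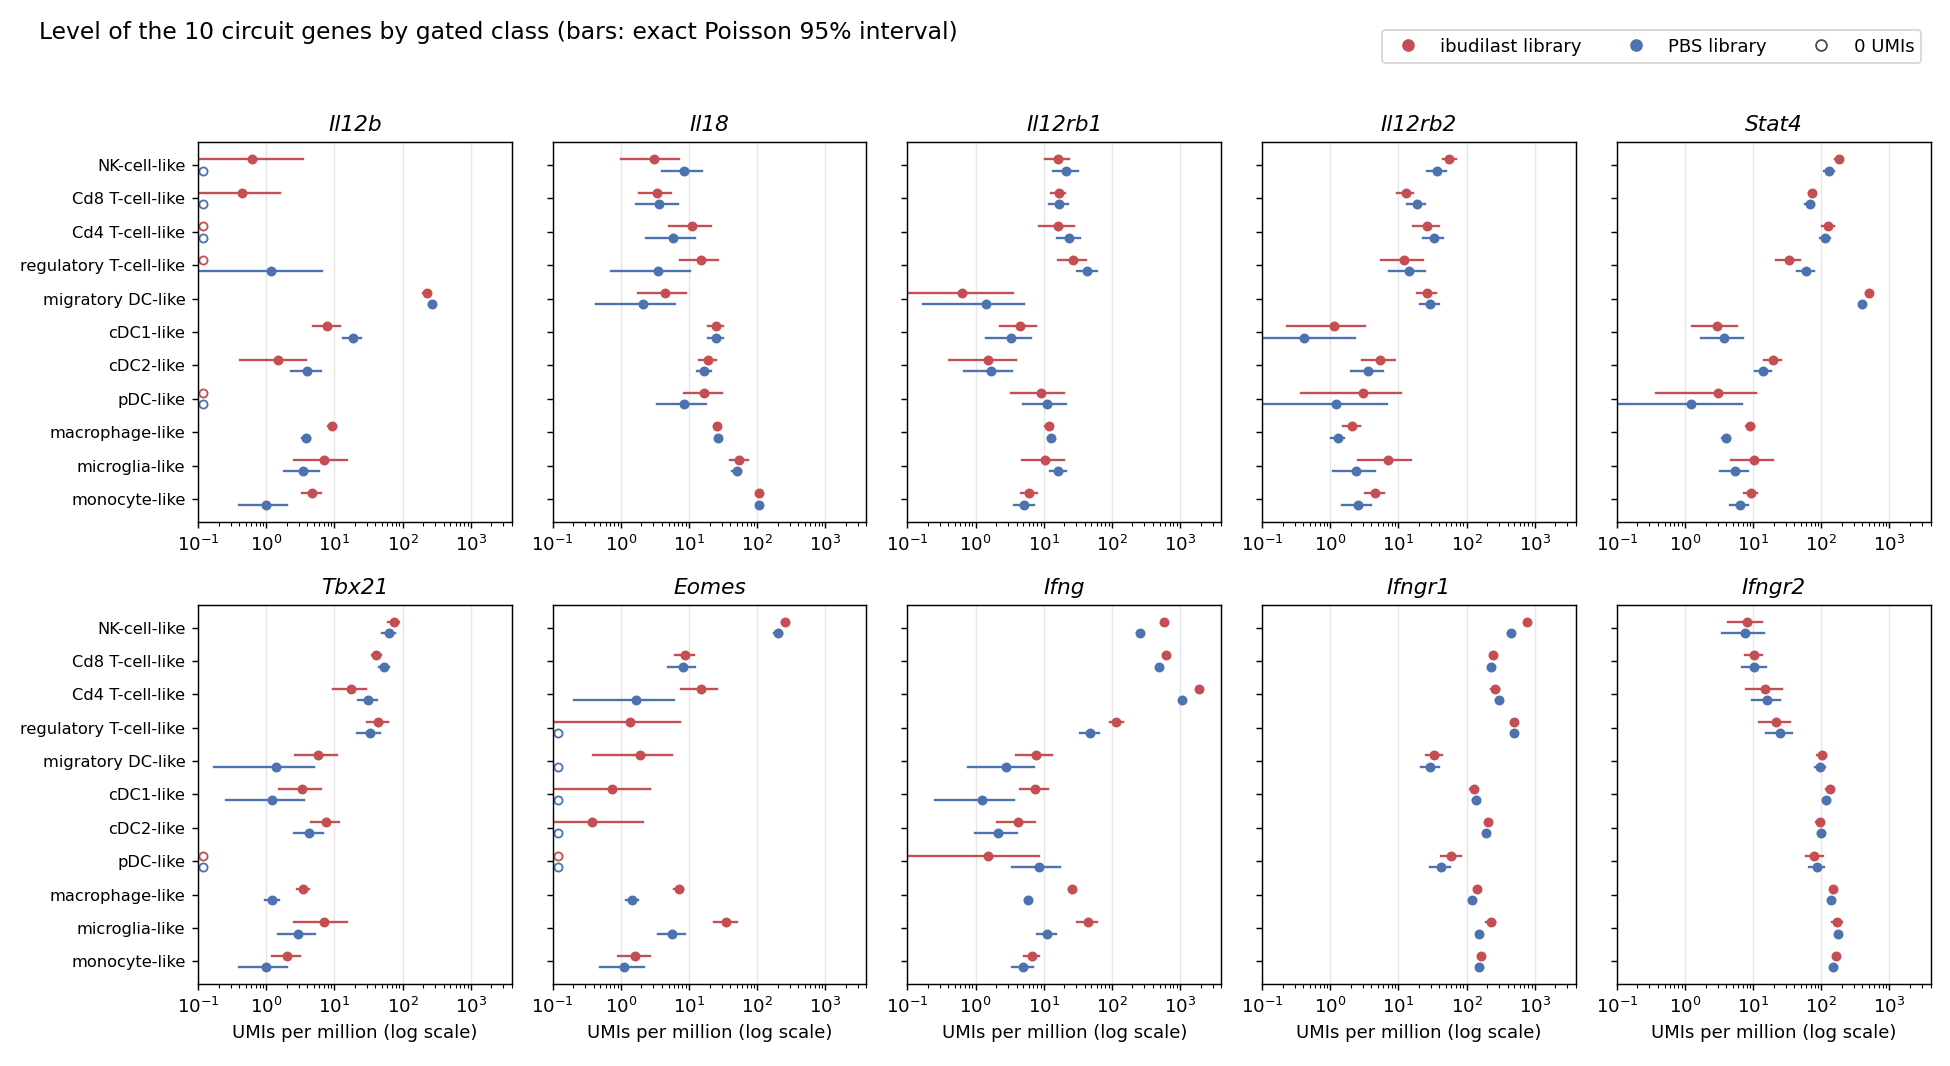
Level of each circuit gene (CPM, log scale) in 11 gated classes, with the ibudilast library above the PBS library in each row. Points are class sums, bars exact Poisson intervals at 95%, cut at the left edge, and open points at the left edge mark 0 UMIs. Il12b stands out in migratory DC-like cells, Il18 in monocyte-like cells, Ifng in NK and T classes and Ifngr2 in myeloid classes.

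Macrophage-like cells were the other large holder of Il12b by number. They had 237 UMIs in each library, 9.33 CPM (8.18 to 10.6) in the ibudilast library and 3.88 CPM (3.40 to 4.41) in the PBS library, a ratio of 2.40 (2.00 to 2.89). That was 35.3% of the gated Il12b UMIs in the ibudilast library and 33.5% in the PBS library. An Il12b UMI was found in 56 of 2171 ibudilast cells (2.58%) and 89 of 3987 PBS cells (2.23%). In all T-cell-like cells, which should lack the gene, the shares were 0.3% and 0.199%, with class medians of 9598 and 14206 UMIs in macrophage-like cells and 8133.5 and 8501.5 UMIs in Cd8 T-cell-like cells, the largest T class. The ratio turned on a handful of cells, since 3 ibudilast cells and 13 PBS cells held 50% of the UMIs. It was 1.44 without the 5 highest cells of each library and 1.83 after every cell was thinned to 2000 UMIs. Among macrophage-like cells with 0 UMIs of the migratory DC markers, Il12b stood at 11.6 CPM in the ibudilast library and 3.23 CPM in the PBS library (ratio 3.59). In those with such UMIs it stood at 3.51 and 4.74 CPM (ratio 0.742, 0.462 to 1.15), and they held 25 of the 237 ibudilast and 125 of the 237 PBS UMIs. Monocyte markers stood at 1332 CPM in ibudilast and 669.2 CPM in PBS macrophage-like cells (ratio 1.99, 1.96 to 2.02), and their part in the ratios of this class was not tested.

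cDC1-like cells, the Xcr1 dendritic cells that cross-present antigen, had 21 Il12b UMIs (7.82 CPM) in the ibudilast library and 45 (18.5 CPM) in the PBS library. The ratio of 0.423 (0.240 to 0.725) rested on 9 ibudilast and 3 PBS cells, and 1 PBS cell held 34 of the 45 UMIs. With each cell weighted alike the ratio was 1.53, in the other direction. Monocyte-like cells had 44 UMIs in the ibudilast library (4.69 CPM) and 7 in the PBS library (0.985 CPM), and 1 ibudilast cell held 34 of them. Of those UMIs, 42 in the ibudilast library and 6 in the PBS library were in cells that also had UMIs of the migratory DC markers, and the part these play in the ratio of 4.76 was not tested. That ratio was 0.409 with classes named from clusters, in the other direction, and 1.04 with the marker level of the gate doubled. Lymphocytes were near 0: NK-cell-like cells had 1 and 0 Il12b UMIs, and Cd4 T-cell-like cells had 0 in both libraries, which allows up to 3.73 CPM in the ibudilast library and 2.52 CPM in the PBS library. Il12a, the other subunit, was read too rarely to compare, with at most 6 UMIs in any of the NK, T, DC, macrophage-like and monocyte-like classes in either library.

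**Figure D2:**
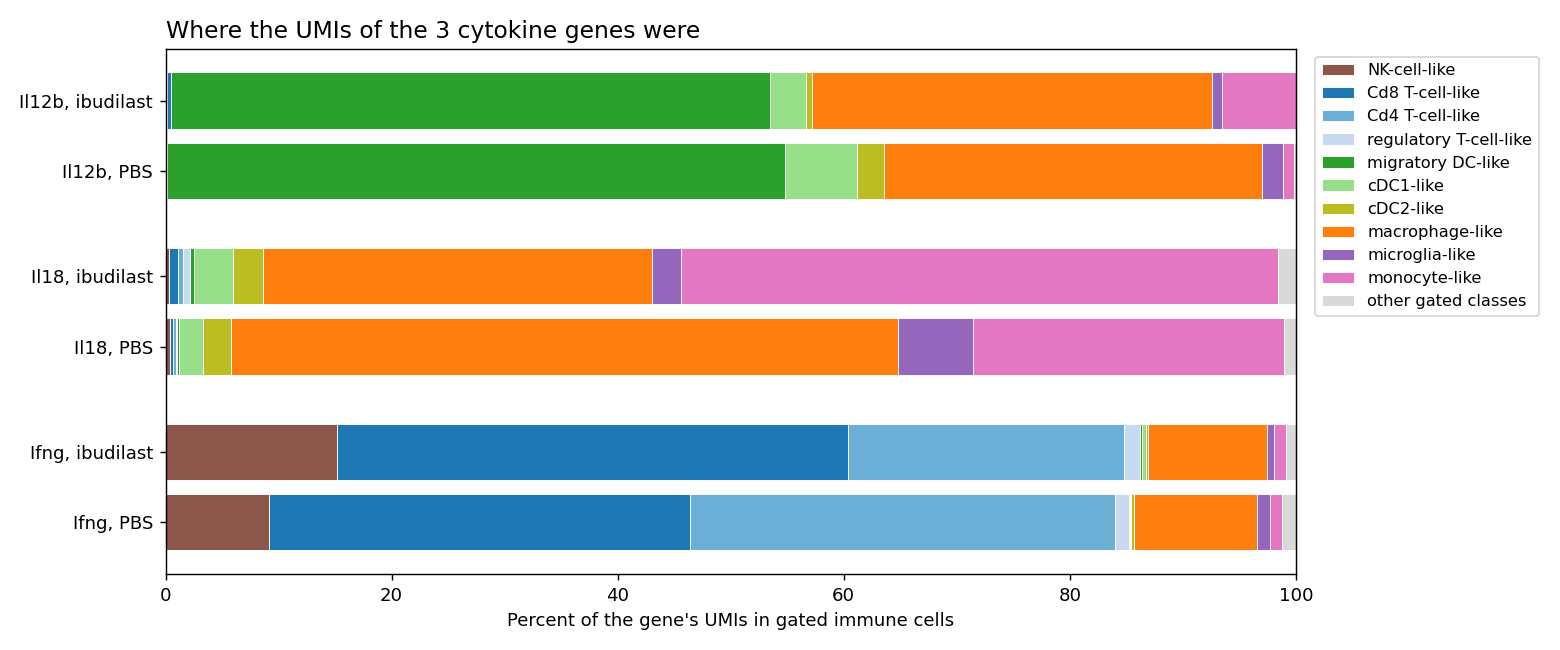
Percent of the UMIs of Il12b, Il18 and Ifng that lay in each gated class, with the ibudilast library above the PBS library for each gene. Migratory DC-like cells hold over 50% of Il12b in both libraries, and the Il18 bar is split mainly between monocyte-like and macrophage-like cells, at 52.9% and 34.4% in the ibudilast library and at 27.5% and 59.0% in the PBS library.

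Il18, the cytokine that acts with interleukin-12 on NK and T cells and is released after cleavage by caspase-1, had other sources. Monocyte-like cells were highest of the larger classes, at 106.2 CPM (997 UMIs, 99.7 to 113) in the ibudilast library and 107.8 CPM (766 UMIs, 100 to 116) in the PBS library, a ratio of 0.985 (0.896 to 1.08). Microglia-like cells followed at 54.6 CPM and 49.9 CPM (ratio 1.09, 0.777 to 1.51), and neutrophil-like cells, 44 and 59 in number, at 89.8 and 83.1 CPM lay between these classes and apart from neither beyond counting error. Macrophage-like cells stood at 25.6 CPM (649 UMIs) and 26.9 CPM (1644 UMIs), a ratio of 0.949 (0.865 to 1.04), and cDC1-like cells at 24.6 CPM in both libraries. The level within each of these classes differed between the libraries by no more than counting error. Migratory DC-like cells, the main holders of Il12b, had only 7 and 3 Il18 UMIs. Il18 UMIs were spread thinly: the highest monocyte-like cells had 9 and 8 UMIs, and 130 ibudilast and 95 PBS cells held 50% of the class's UMIs. The class that held most Il18 differed, since monocyte-like cells held 52.9% (50.6 to 55.2) of the gated UMIs in the ibudilast library and 27.5% (25.8 to 29.2) in the PBS library, and macrophage-like cells 34.4% and 59.0%. Monocyte-like cells numbered 1322 and 924 and macrophage-like cells 2171 and 3987, and the part of these cell numbers in the shares was not tested. Il18bp, the secreted protein that binds interleukin-18 and blocks it, was at 187.3 CPM in ibudilast macrophage-like cells and 136.2 CPM in PBS macrophage-like cells (ratio 1.37, 1.33 to 1.42).

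**Figure D3:**
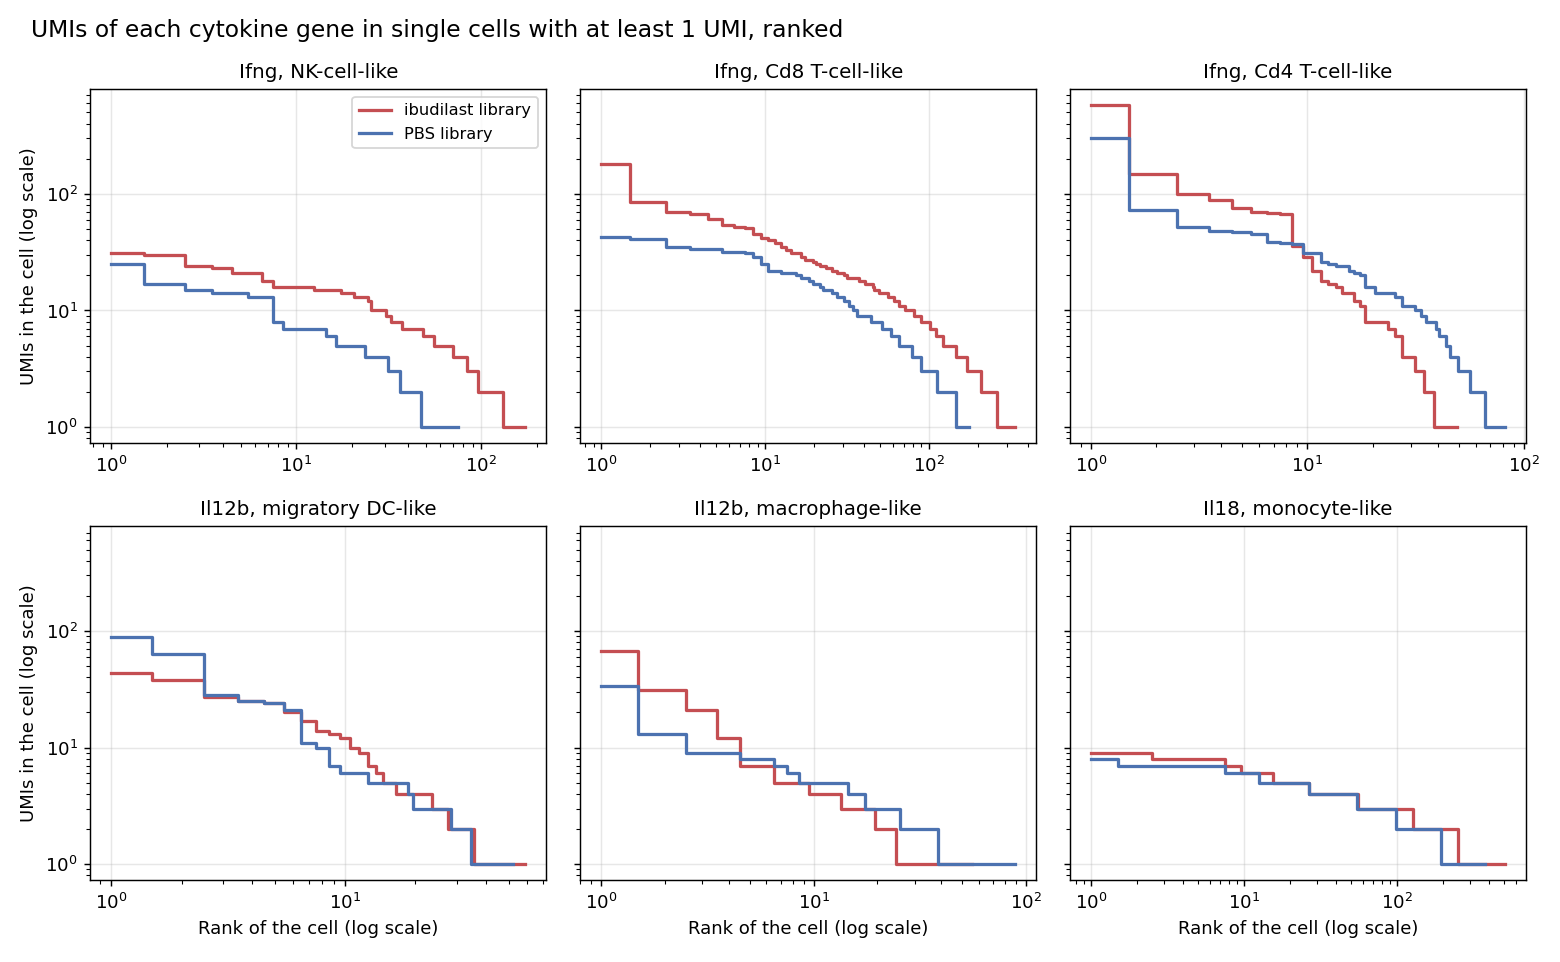
UMIs of a cytokine gene in single cells (log scale) against the rank of the cell (log scale), for cells with at least 1 UMI. The highest Cd4 T-cell-like cell has 580 Ifng UMIs in the ibudilast library and 301 in the PBS library, while no monocyte-like cell has more than 9 Il18 UMIs.

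Il12rb1, the receptor chain shared with the interleukin-23 receptor, was read at low levels in most classes. It had 0 UMIs in the neutrophil-like cells of both libraries and in PBS B-cell-like and PBS mast- or basophil-like cells. It stood at 16 CPM in ibudilast NK-cell-like cells (26 UMIs) and 21.2 CPM in PBS NK-cell-like cells (25 UMIs), and at 16.5 CPM in the Cd8 T-cell-like cells of both libraries. Among classes of at least 50 cells in each library, regulatory T-cell-like cells were highest, at 26.8 CPM (20 UMIs) in the ibudilast library and 43.4 CPM (37 UMIs) in the PBS library. The ratio of 0.617 had an interval of 0.339 to 1.09, which holds 1. Macrophage-like cells had 11.8 CPM (299 UMIs) and 12.6 CPM (767 UMIs), a ratio of 0.937 (0.817 to 1.07), so the chain was not restricted to lymphoid classes. Over all T-cell-like cells the level was 18.3 CPM in the ibudilast library and 24.9 CPM in the PBS library, a ratio of 0.735 (0.564 to 0.958). Non-immune-like barcodes, 91 and 26 in number, had 41.4 and 59.6 CPM.

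Il12rb2, the signalling chain, separated the classes more clearly. NK-cell-like cells were highest, with 56.0 CPM (91 UMIs, 45.1 to 68.8) in the ibudilast library and 36.5 CPM (43 UMIs, 26.4 to 49.2) in the PBS library, where they were above Cd4 T-cell-like cells by no more than counting error (1.12-fold, 0.706 to 1.77). The ratio was 1.53 (1.06 to 2.26), but it was 0.998 when each cell was thinned to 2000 UMIs, and the share of NK-cell-like cells with a UMI was 25.6% and 23.9%. In macrophage-like cells, not known for the chain, 2.03% and 1.81% of cells had a UMI, at median depths of 9598 and 14206 UMIs, and those of NK-cell-like cells were 4591 and 6810 UMIs. Cd4 T-cell-like cells had 26.1 CPM (21 UMIs) and 32.7 CPM (39 UMIs), a ratio of 0.799 (0.446 to 1.39), and Cd8 T-cell-like cells 12.7 CPM (57 UMIs) and 18.5 CPM (46 UMIs), a ratio of 0.688 (0.458 to 1.04). Over all T-cell-like cells the level was 14.5 CPM in the ibudilast library and 20.5 CPM in the PBS library, a ratio of 0.706 (0.525 to 0.949). The part of the mix of T classes in this pooled ratio was not tested. Migratory DC-like cells carried the chain too, at 26.0 CPM and 28.8 CPM (41 UMIs each), which was level with Cd4 T-cell-like cells within counting error in both libraries.

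Both receptor chains were seldom read in 1 cell. Il12rb1 and Il12rb2 UMIs occurred together in 8 of 297 ibudilast NK-cell-like cells (2.69%, 1.17 to 5.24) and 9 of 134 PBS NK-cell-like cells (6.72%, 3.12 to 12.4). They occurred together in 5 of 430 ibudilast and 6 of 242 PBS Cd8 T-cell-like cells. No migratory DC-like cell had both, out of 230 and 179 cells, where 29 and 27 had Il12rb2 and only 1 and 2 had Il12rb1. At these depths a cell without a UMI cannot be called negative.

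Stat4, the transcription factor that the interleukin-12 receptor activates, was highest in migratory DC-like cells and not in lymphocytes. It stood there at 493.0 CPM (778 UMIs, 459 to 529) in the ibudilast library and 401.6 CPM (572 UMIs, 369 to 436) in the PBS library, a ratio of 1.23 (1.10 to 1.37). Next were NK-cell-like cells at 179.7 CPM (292 UMIs, 160 to 202) and 129.9 CPM (153 UMIs, 110 to 152), a ratio of 1.38 (1.13 to 1.69). Cd4 T-cell-like cells had 125.7 and 113.3 CPM and Cd8 T-cell-like cells 72.6 and 67.5 CPM, both with intervals of the ratio that hold 1. In regulatory T-cell-like cells Stat4 was lower in the ibudilast library, at 33.5 CPM (25 UMIs) against 58.7 CPM (50 UMIs) in the PBS library (ratio 0.570, 0.338 to 0.94), and it was 0.986 when cells were thinned to 2000 UMIs. cDC1-like cells, unlike migratory DC-like cells, had 8 and 9 UMIs of the gene, 2.98 and 3.69 CPM.

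Tbx21, which encodes T-bet, the factor of type 1 lymphocytes, was highest in NK-cell-like cells at 74.5 CPM (121 UMIs, 61.8 to 89.0) in the ibudilast library and 62.9 CPM (74 UMIs, 49.4 to 78.9) in the PBS library, a ratio of 1.18 (0.880 to 1.60). The PBS level did not differ beyond counting error from that of Cd8 T-cell-like cells, the next class. Cd8 T-cell-like cells had 41.4 CPM (186 UMIs) and 53.8 CPM (134 UMIs), a ratio of 0.770 (0.613 to 0.969), and Cd4 T-cell-like cells 17.4 CPM (14 UMIs) and 31.1 CPM (37 UMIs), a ratio of 0.561 (0.280 to 1.06). Regulatory T-cell-like cells had 44.2 CPM (33 UMIs) and 32.9 CPM (28 UMIs), where 1 ibudilast cell held 14 of the 33 UMIs.

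Eomes, the related T-box factor that NK cells need to mature, marked NK-cell-like cells much more sharply. They had 258.5 CPM (420 UMIs, 234 to 284) in the ibudilast library and 200.4 CPM (236 UMIs, 176 to 228) in the PBS library, a ratio of 1.29 (1.10 to 1.52). The ratio was 1.09 with the marker level of the gate doubled. Cd8 T-cell-like cells had 8.69 CPM (39 UMIs) and 8.03 CPM (20 UMIs). An Eomes UMI was found in 66.0% of ibudilast and 64.9% of PBS NK-cell-like cells and in 5.81% and 5.79% of Cd8 T-cell-like cells. Some markers of the NK gate, such as Ncr1 and Klrb1c, are shared with other group 1 innate lymphoid cells, so the class may hold both.

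Ifng, the output of the circuit, was carried by T and NK classes. T-cell-like cells together held 71.8% (70.7 to 73.0) of the gated Ifng UMIs in the ibudilast library and 76.9% (75.5 to 78.3) in the PBS library, and NK-cell-like cells 15.2% (14.3 to 16.1) and 9.15% (8.2 to 10.2). Cd8 T-cell-like cells alone held 45.2% and 37.2%, and Cd4 T-cell-like cells 24.4% and 37.6%. By level, Cd4 T-cell-like cells were first in both libraries. Cd8 T-cell-like cells came next, level with NK-cell-like cells within counting error in the ibudilast library and above them in the PBS library. Over all gated immune cells Ifng was at 118.8 CPM in the ibudilast library and 38.1 CPM in the PBS library (ratio 3.12, 2.99 to 3.26). NK-cell-like cells were 4.46% of the kept ibudilast cells and 1.75% of the kept PBS cells, and Cd8 T-cell-like cells 6.46% and 3.16%, and the part of these shares in the ratio was not tested. The ratio of 3.12 also leaves out barcodes with markers of 2 lineages. These held 34.6% of the Ifng UMIs of kept ibudilast cells and 48.0% of those of kept PBS cells. Ifng in them was at 212.9 CPM in the ibudilast library and 220.4 CPM in the PBS library. That is a ratio of 0.966, with an interval that holds 1. The part of leaving them out in the ratio of 3.12 was not tested.

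In NK-cell-like cells Ifng stood at 574.3 CPM (933 UMIs, 538 to 612) in the ibudilast library and 259.0 CPM (305 UMIs, 231 to 290) in the PBS library, a ratio of 2.22 (1.95 to 2.53). A UMI was found in 58.2% (52.4 to 63.9) of ibudilast and 56.0% (47.1 to 64.5) of PBS cells, close to each other, but the ibudilast cells were shallower, with median depths of 4591 and 6810 UMIs. After thinning to 2000 UMIs the shares were 45.4% and 29.1%. Monocyte-like cells, which should lack the gene, had it in 3.56% and 2.49% of cells at median depths of 6442.5 and 7310.5 UMIs. Cells with 10 or more Ifng UMIs were 30 of 297 ibudilast NK-cell-like cells (10.1%) and 7 of 134 PBS cells (5.22%). The UMIs were spread over cells, with 29 ibudilast and 13 PBS cells holding 50% of them, and the ratio was 2.64 without the 5 highest cells of each library. It moved to 1.78 with each cell weighted alike and to 1.5 with the marker level of the gate doubled. The NK markers themselves stood at 3821 CPM in ibudilast and 2891 CPM in PBS NK-cell-like cells (ratio 1.32, 1.27 to 1.38), and non-immune markers at 52.3 and 10.2 CPM (ratio 5.13). The part of these in the ratios of Ifng, Ifngr1, Il12rb2, Stat4 and Eomes in this class was not tested.

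In Cd8 T-cell-like cells Ifng stood at 618.4 CPM (2775 UMIs, 596 to 642) in the ibudilast library and 498.0 CPM (1240 UMIs, 471 to 527) in the PBS library, a ratio of 1.24 (1.16 to 1.33). A UMI was found in 78.1% and 72.3% of cells. The ratio was 1.35 with classes named from clusters, 1.19 without the 5 highest cells and 1.21 with each cell weighted alike. Cd4 T-cell-like cells had 1865 CPM (1498 UMIs) in the ibudilast library and 1052 CPM (1254 UMIs) in the PBS library, a ratio of 1.77 (1.64 to 1.91). Here 3 of 100 ibudilast cells and 8 of 136 PBS cells held 50% of the UMIs, and 1 ibudilast cell had 580 of the 1498. The ratio was 0.946 with each cell weighted alike and 1.10 without the 5 highest cells, and an Ifng UMI was found in fewer of the ibudilast cells, 49.0% (38.9 to 59.2) against 60.3% (51.6 to 68.6) in the PBS library. Regulatory T-cell-like cells had 116.5 CPM (87 UMIs) and 46.9 CPM (40 UMIs), a ratio of 2.48 (1.69 to 3.70). NK markers stood at 61.6 CPM in these ibudilast cells, with 7 of 7 markers read, and at 7.04 CPM in the PBS cells, with 2 of 7 read, and their part in the ratio was not tested. The direction turned under other ways of assigning cells, with 0.475 when clusters were named from the markers and 0.567 when barcodes of 2 lineages were counted. Ifng had 22 UMIs in 11 ibudilast gamma-delta T-cell-like cells and 0 in 11 PBS cells of that class, and 1 ibudilast cell held 19 of the 22.

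**Figure D4:**
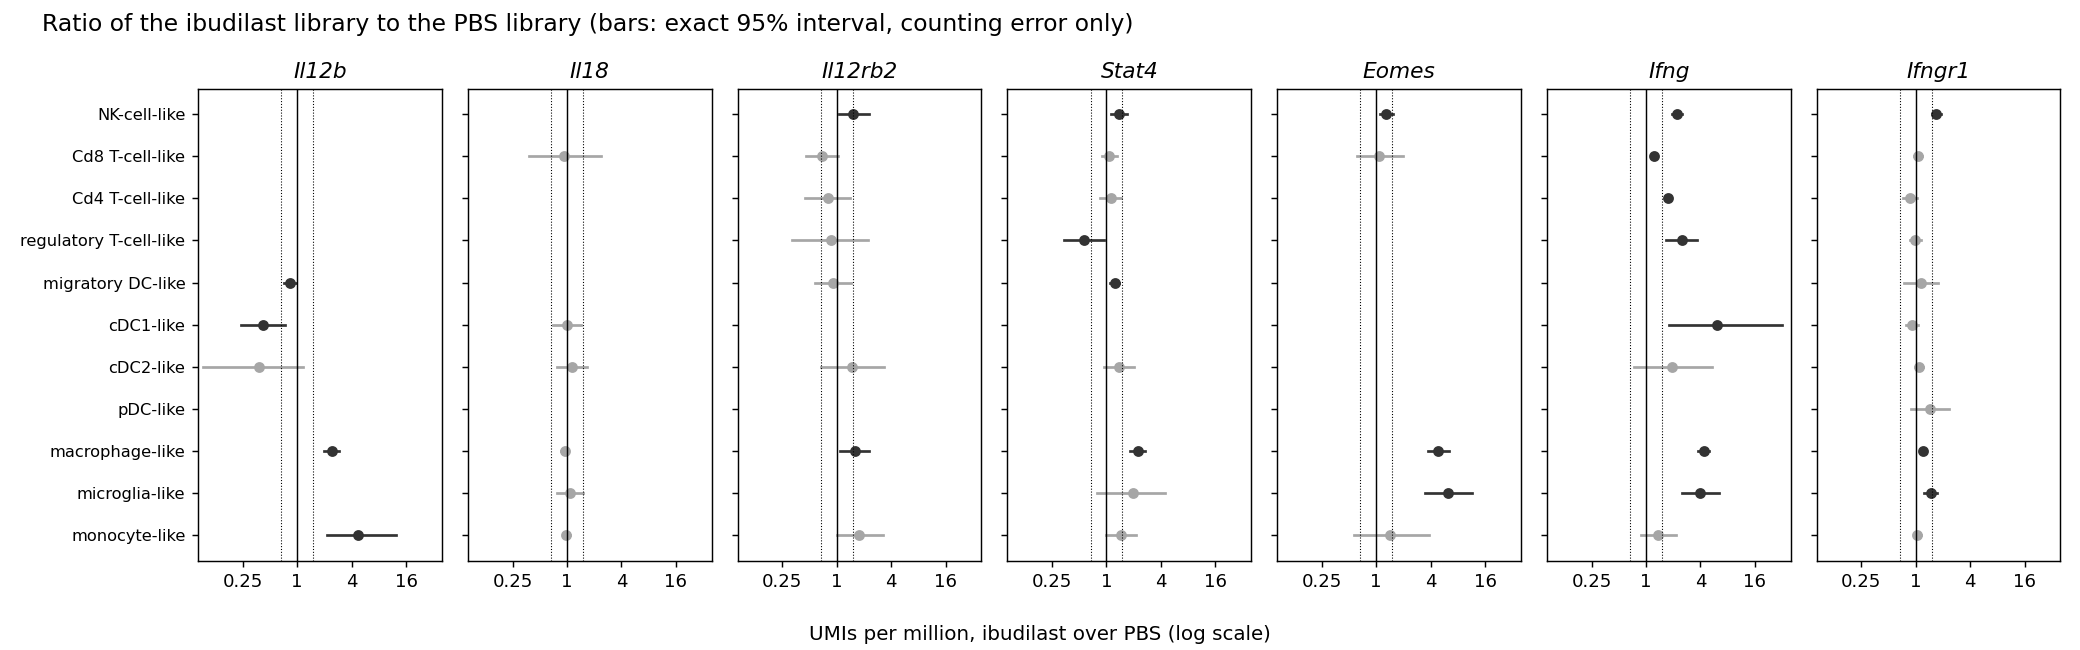
Ratio of the ibudilast to the PBS level (log scale) for 7 circuit genes in 11 gated classes. Points with at least 20 UMIs over both libraries are drawn, bars are exact intervals at 95%, dark points have intervals that leave out 1, and dotted lines mark 1.5-fold. Ifng lies above 1 in NK-cell-like cells (2.22) and macrophage-like cells (4.33), while Il18 lies near 1 in every class drawn.

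Ifng UMIs also appeared in classes that are not known as its source. Macrophage-like cells had 651 UMIs (25.6 CPM, 23.7 to 27.7) in the ibudilast library and 361 UMIs (5.91 CPM, 5.32 to 6.56) in the PBS library, a ratio of 4.33 (3.81 to 4.94), and held 10.6% and 10.8% of the gated Ifng UMIs. NK markers moved alongside: all 7 were read in both libraries and summed to 48.8 CPM in ibudilast and 15 CPM in PBS macrophage-like cells. All 7 T markers were read too and summed to 159.8 and 71.4 CPM. In the 1170 ibudilast and 2679 PBS macrophage-like cells with 0 UMIs of both lists, Ifng stood at 4.49 CPM (49 UMIs) and 2.51 CPM (94 UMIs), a ratio of 1.79 (1.24 to 2.55). In the cells with such markers it stood at 41.6 CPM and 11.3 CPM, a ratio of 3.68. Of the macrophage Ifng UMIs, 602 of 651 in the ibudilast library and 267 of 361 in the PBS library were thus in cells with NK or T marker UMIs, and the part of that RNA in the ratio was not tested. Microglia-like cells had 38 Ifng UMIs (44.1 CPM) and 41 (11 CPM), and all 38 of the ibudilast library were in the 39 cells with NK or T marker UMIs. Eomes was read in the same classes, with 7.09 CPM in ibudilast and 1.46 CPM in PBS macrophage-like cells and a ratio of 4.86 (3.75 to 6.34). Of its 180 and 89 UMIs in macrophage-like cells, 175 and 81 lay in cells with NK or T marker UMIs.

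**Figure D5:**
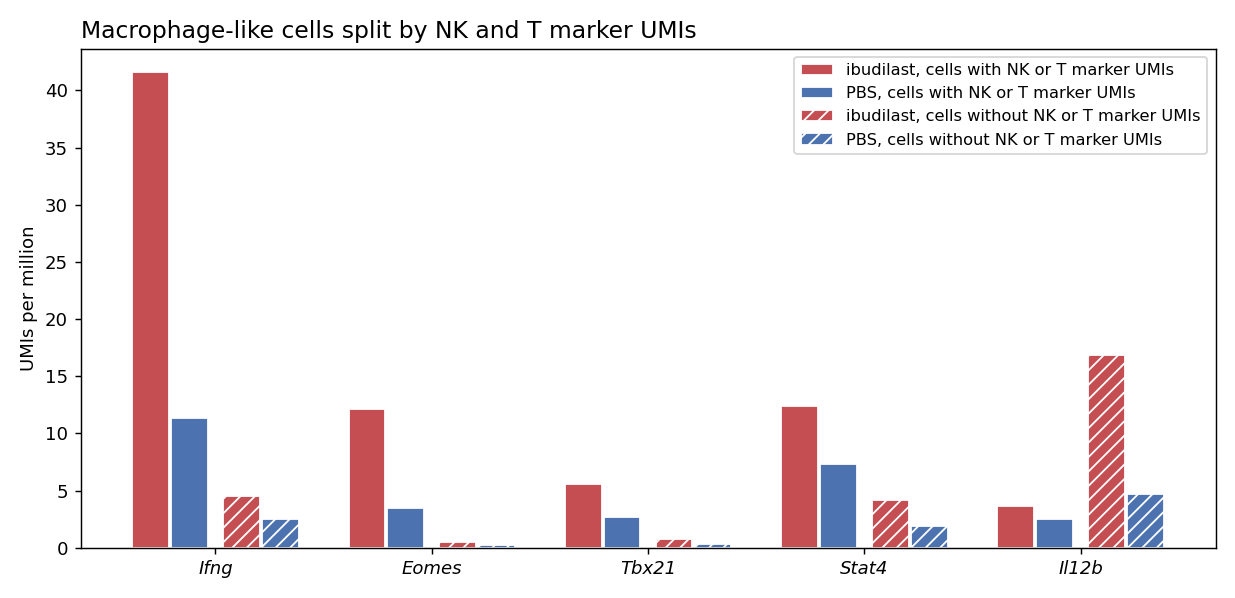
Level of 5 circuit genes (CPM) in macrophage-like cells with and without UMIs of the NK and T markers, with the ibudilast bar left of the PBS bar in each pair. Ifng is at 41.6 and 11.3 in cells with the markers and at 4.49 and 2.51 in cells without them, while Il12b is higher in cells without them, at 16.9 and 4.73.

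The 2 chains of the interferon-gamma receptor were spread differently over the classes. Ifngr1, the ligand-binding chain, was highest of the larger classes in ibudilast NK-cell-like cells at 760.8 CPM (1236 UMIs, 719 to 804), against 448.4 CPM (528 UMIs, 411 to 488) in PBS NK-cell-like cells, a ratio of 1.70 (1.53 to 1.88). It moved to 1.3 with the marker level of the gate doubled, 1.31 in thinned cells and 1.38 with each cell weighted alike. Regulatory T-cell-like cells, highest of the larger classes in the PBS library but level with NK-cell-like cells within counting error, had 496.6 and 503.5 CPM (ratio 0.986, 0.856 to 1.14), and Cd8 T-cell-like cells 240.7 and 228.5 CPM. Macrophage-like cells had 142.5 CPM (3618 UMIs) and 119.5 CPM (7291 UMIs), a ratio of 1.19 (1.15 to 1.24). They held 38.5% of the gated Ifngr1 UMIs in the ibudilast library and 59.4% in the PBS library. Microglia-like cells had 225.2 and 154.1 CPM, a ratio of 1.46 (1.23 to 1.72) that was 1.07 in cells without NK and T marker UMIs and 0.962 in thinned cells. Migratory DC-like cells were lowest of the classes described, at 33.6 and 29.5 CPM.

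Ifngr2, the signalling chain, was higher in the myeloid classes named here than in NK-cell-like and Cd8 T-cell-like cells. Microglia-like cells had 170.6 CPM in the ibudilast library and 178.0 CPM in the PBS library, monocyte-like cells 165.7 and 148.9 CPM, macrophage-like cells 146.2 and 138.8 CPM and cDC1-like cells 132.5 and 118.6 CPM. NK-cell-like cells had 8.0 CPM (13 UMIs) and 7.64 CPM (9 UMIs), and Cd8 T-cell-like cells 10.3 CPM (46 UMIs) and 10.4 CPM (26 UMIs). The largest of these ratios was 1.12 in cDC1-like cells (0.954 to 1.31), and that of monocyte-like cells was 1.11 (1.03 to 1.2). Both chains were read together in 48.5% (46.4 to 50.6) of ibudilast and 58.5% (56.9 to 60.0) of PBS macrophage-like cells, which had median depths of 9598 and 14206 UMIs. They were read together in 3.03% and 3.73% of NK-cell-like cells.

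Within NK-cell-like cells, the share with an Ifng UMI was set beside that of the upstream genes in the same cell. An Ifng UMI was found in 60.2% of the 196 ibudilast cells with an Eomes UMI and in 54.5% of those without one, and in 60.9% of the 87 PBS cells with one and 46.8% of those without. Median depths of the ibudilast cells with and without Eomes were 4552.5 and 4612 UMIs, and those of the PBS cells 6763 and 6857 UMIs. With Il12rb2 the shares were 57.9% and 58.4% in the ibudilast library, at 4498.5 and 4625 UMIs, and 59.4% and 54.9% in the PBS library, at 5794.5 and 7031.5 UMIs. With Stat4 they were 57.2% and 59.7% in the ibudilast library, at 4603 and 4571 UMIs, and 59.0% and 51.8% in the PBS library, where cells with and without Stat4 had median depths of 7359 and 5425 UMIs. With Tbx21 they were 65.6% and 55.1% in the ibudilast library, at 4661.5 and 4551 UMIs, and 59.3% and 53.8% in the PBS library, at 8008 and 5599.5 UMIs. These are descriptions of cells of 1 library each, with no test.

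Calls of the members were read against those of all genes. A gene with at least 20 UMIs over both libraries was called higher or lower when its level differed by 1.5-fold or more. In NK-cell-like cells 3 of 8 members that passed the minimum were higher (Ifng, Ifngr1 and Il12rb2) and 0 lower, where 11.6% of the 8076 genes that passed were higher and 9.88% lower. In Cd8 T-cell-like cells 0 of 9 were called either way, against 6.15% higher and 3.66% lower of all genes. In Cd4 T-cell-like cells Ifng was higher and Tbx21 lower out of 7, against 7.32% and 9.74%. In regulatory T-cell-like cells Ifng was higher and Il12rb1 and Stat4 lower out of 7, against 10.8% and 7.91%. Over all T-cell-like cells Eomes was higher out of 9, against 3.72% and 4.75%. It had 52 and 22 UMIs there, with 39 and 20 in Cd8 T-cell-like cells and 12 and 2 in Cd4 T-cell-like cells. The part of the mix of T classes in this call was not tested. In migratory DC-like cells 0 of 5 were called, against 10.5% and 5.5%. In cDC1-like cells Ifng was higher (20 and 3 UMIs) and Il12b lower out of 6, against 9.49% and 5.26%. NK markers stood at 23.8 CPM in ibudilast and 11.9 CPM in PBS cDC1-like cells (ratio 2.00, 1.27 to 3.22) and T markers at 48.0 and 35.7 CPM (ratio 1.34), and their part in the Ifng call was not tested. In cDC2-like cells Ifng and Tbx21 were higher and Il12b lower out of 8, against 5% and 6.56%. In microglia-like cells Ifng, Eomes and Stat4 were higher and Il12rb1 lower out of 7, against 9.32% and 12.3%. That of Stat4 rested on 9 and 20 UMIs and was 0.711 with each cell weighted alike and 0.660 in thinned cells. All 30 ibudilast and all 21 PBS Eomes UMIs of microglia-like cells were in cells with NK or T marker UMIs. The part of that RNA in the Eomes call was not tested. In plasmacytoid DC-like cells 0 of 2 were called, against 9.47% and 7.71%. In macrophage-like cells 6 of 10 were higher (Ifng, Il12b, Il12rb2, Stat4, Tbx21 and Eomes) and 0 lower, against 8.98% and 2.32%. In monocyte-like cells 3 of 10 were higher (Il12b, Il12rb2 and Tbx21) and 0 lower, against 6.7% and 3.43%. Among the calls above, intervals of the ratio held 1 for Tbx21 in Cd4 T-cell-like cells, Il12rb1 in regulatory T-cell-like cells, all 3 in cDC2-like cells, Stat4 and Il12rb1 in microglia-like cells, and Il12rb2 and Tbx21 in monocyte-like cells. The macrophage-like count includes Ifng, Eomes, Tbx21 and Stat4. In the ibudilast library 602 of 651, 175 of 180, 81 of 89 and 180 of 226 of their UMIs were in cells with NK or T marker UMIs. In the PBS library these were 267 of 361, 81 of 89, 63 of 75 and 173 of 245. In macrophage-like cells without such UMIs the ratios were 1.79 (1.24 to 2.55) for Ifng and 2.19 (1.48 to 3.21) for Stat4. Those of Eomes (2.14, 0.551 to 7.42) and Tbx21 (2.28, 0.810 to 6.08) had intervals that hold 1. An Ifng UMI was found in 40.9% of ibudilast macrophage-like cells with an Il12rb2 UMI and in 8.27% of those without. In the PBS library these were 22.2% and 4.55%. Median depths with and without Il12rb2 were 20241.5 and 9482 UMIs in the ibudilast library and 23321 and 14073 UMIs in the PBS library. The part of NK and T cell RNA in the Il12rb2 call was not tested.

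The other genes of the circuit were taken from 3 lists. Of 18 genes of receptors and signalling, 15 passed the minimum in NK-cell-like cells, 4 were higher and 0 lower, beside 11.6% and 9.88% of all genes, with a median log2 ratio of 0.18 against 0.01 over all genes. Those higher, 3 of them named after their values were seen, were Zeb2, a factor of NK maturation, at 216.7 CPM in the ibudilast library and 96.8 CPM in the PBS library, Il18r1 and Il18rap, the 2 chains of the interleukin-18 receptor, at 150.8 and 79.8 CPM and at 177.9 and 106.2 CPM, and Socs3, a feedback inhibitor of cytokine signalling, at 176.6 and 113.8 CPM. The kinase Jak1 (ratio 1.21) and Runx3 (1.27) were not called, and Il2rb (0.973) had an interval that holds 1. The same list had 4 of 16 higher and 0 lower in macrophage-like cells, beside 8.98% and 2.32% of all genes. Microglia-like cells had 4 of 15 higher and 1 lower, beside 9.32% and 12.3%. Monocyte-like cells had 3 of 16 higher and 0 lower, beside 6.7% and 3.43%. Regulatory T-cell-like cells had 3 of 14 higher and 1 lower, beside 10.8% and 7.91%. NK markers had ratios of 3.24 in macrophage-like, 3.90 in microglia-like, 1.84 in monocyte-like and 8.7 in regulatory T-cell-like cells. T markers had ratios of 2.24 in macrophage-like, 1.83 in microglia-like and 2.02 in monocyte-like cells. The part of NK and T cell RNA in the counts of these classes was not tested. In Cd8 T-cell-like cells 0 of 17 were higher and 1 was lower (Hlx, named after its value was seen, with a ratio of 0.640, 0.284 to 1.46), beside 6.15% and 3.66% of all genes, and Il18r1, named for its value in NK-cell-like cells, was at 93.8 and 97.2 CPM there.

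Of 16 interferon-gamma response genes, 15 passed the minimum in macrophage-like cells and 0 were called, beside 8.98% higher and 2.32% lower of all genes, with a median log2 ratio of -0.09 against 0.05 over all genes. Cxcl9, a chemokine that draws Cxcr3-positive T and NK cells, was at 1141 CPM in the ibudilast library and 1337 CPM in the PBS library (ratio 0.853, 0.842 to 0.865), and Irf1 at 182.1 and 158.6 CPM (ratio 1.15). In monocyte-like cells 0 of 15 were called, beside 6.7% and 3.43%. Plasmacytoid DC-like cells had 4 of 14 higher and 0 lower, beside 9.47% and 7.71%. In cDC1-like cells 3 of 14 were higher, where 9.49% of all genes were: Cxcl10 at 223.0 and 133.4 CPM, and the guanylate-binding proteins Gbp2 at 110.2 and 49.7 CPM and Gbp5 at 44.7 and 26.3 CPM, the last pair named after their values were seen. In microglia-like cells 3 of 14 were lower, where 12.3% of all genes were, Cxcl9 at 313.4 and 756.7 CPM (ratio 0.414), and Gbp2 (0.602) and Cd274 (0.596), the last pair named after their values were seen. Of the 13 genes upstream of the circuit, 12 passed in macrophage-like cells, and 1 was higher (Cd40lg, named after its value was seen) and 0 lower, beside 8.98% and 2.32% of all genes. Cd40lg is also a marker of the Cd4 T gate. T markers stood at 159.8 CPM in ibudilast and 71.4 CPM in PBS macrophage-like cells, and the part of that RNA in the Cd40lg call was not tested. Microglia-like cells had 0 of 10 higher and 4 lower, beside 9.32% and 12.3%. In migratory DC-like cells, Irf8, a factor of dendritic cell identity that acts on Il12b, was at 1356 and 1078 CPM (ratio 1.26) and Cd40, which receives the T cell signal for interleukin-12, at 298.5 and 315.2 CPM (ratio 0.947).

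Genes whose level followed that of a member most closely were sought over 22 points, 11 classes in each of the 2 libraries, among 11081 genes. For Ifng they were Ehd3 (Pearson r = 0.970 on log2 levels), Sh2d1a (0.967), Nrgn (0.963), Fhl2 (0.957) and Nkg7 (0.957). For Il12b they were Mmp25 (0.927), Nostrin (0.924), Lima1 (0.916), Iscu (0.911) and Stbd1 (0.911). Points of 1 library share its depth, and the classes were gated on markers, so these values describe the pattern over classes only.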

How the data were processed

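Droplet-based 3' single-cell RNA sequencing gave 1 library from ibudilast-treated mice and 1 from PBS-treated mice. The deposited values are UMI counts per gene and barcode, not normalized, written by Cell Ranger 6.1.1 per the file headers, against mm10 per the submitters' processing notes. Kept barcodes had 300 or more genes, 500 or more UMIs and a mitochondrial share below 10%. Scrublet's automatic threshold marked 0 barcodes in each library, so the top 6% by doublet score were removed (425 ibudilast and 489 PBS barcodes).

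Cells were gated into 16 classes by marker lists without any of the 10 circuit genes. The gate level was 0.25 (0.4 for microglia), and barcodes of 2 lineages were set aside. Cd40lg, a gene of the upstream list, was a marker of the Cd4 T class. The microglia level and the mixed-lineage rule were revised after class counts, cluster overlaps and values of circuit genes under a first gate had been seen. The circuit genes and lists were chosen with earlier results of these data known. Counts were summed per class and given per 1000000 UMIs (CPM), with exact Poisson, Clopper-Pearson or conditional binomial intervals at 95%. A gene was called when it had at least 20 UMIs over both libraries and differed by 1.5-fold or more. With 1 library per group no test was made. Besides the 10 circuit genes, the text names the 5 genes most like Ifng and Il12b over the classes and, from each list, genes among the 6 with the most UMIs in the class, and others are said to be named after their values were seen.

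The calculations were tested on simulated data. Tools were scanpy 1.11.5, numpy 2.4.6, scipy 1.17.1, pandas 2.3.3 and matplotlib 3.10.9. Alternatives were cluster-based classes, other doublet, cell and gate settings, equal weight per cell, thinning to 2000 UMIs, other scalings, leaving out the 5 highest cells and counting barcodes of 2 lineages.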

Additional observations from a re-analysis of the deposited data

Results flagged for a closer look

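Outside the gated classes, Il12b and Eomes in barcodes of 2 lineages, and Stat4 and Eomes in barcodes that met no gate, were flagged. Each was at least 1.5-fold above its PBS level in the ibudilast library. Each had at least 20 UMIs over both libraries and an interval above 1. The share of all genes called was not computed for these barcodes. Il12b in barcodes that met no gate had 3 UMIs in the ibudilast library and 9 in the PBS library, under the minimum. In barcodes with markers of 2 lineages, Il12b was at 2.15 CPM (33 UMIs) in the ibudilast library and 0.709 CPM (10 UMIs) in the PBS library, a ratio of 3.03 (1.46 to 6.90). An Il12b UMI was found in 13 of 903 ibudilast barcodes (1.44%) and 10 of 774 PBS barcodes (1.29%). The highest ibudilast barcode held 13 of the 33 UMIs, and the highest PBS barcode had 1. Eomes in barcodes of 2 lineages was at 31.2 and 17.2 CPM, a ratio of 1.81 (1.55 to 2.12). Ifng did not differ there beyond counting error. It was at 212.9 CPM (3267 UMIs) in the ibudilast library and 220.4 CPM (3108 UMIs) in the PBS library. The Ifng ratio was 0.966, with an interval that holds 1. In barcodes that met no gate, Stat4 was at 14.2 and 7.33 CPM, a ratio of 1.93 (1.06 to 3.59), and Eomes was at 8.02 CPM (17 UMIs) and 1.10 CPM (3 UMIs), a ratio of 7.29 (2.11 to 38.8) that rests on 3 PBS UMIs.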

How the results depend on the processing

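Of 815 values under the alternatives, 685 kept their direction and moved little, 113 moved and 17 reversed. Those that kept their direction include ratios of NK and T classes under the alternatives that change only myeloid cells, which cannot move them. The ratio of Ifng in NK-cell-like cells was 1.74 with classes from clusters, 1.5 with the gate level doubled, 1.78 with each cell weighted alike, 1.86 thinned, 2.64 without the 5 highest cells and 1.88 with barcodes of 2 lineages counted. That in Cd8 T-cell-like cells was 1.35 with clusters, and that of Il12b in migratory DC-like cells was 1.11 without the 5 highest cells. The ratio of Il18 in macrophage-like cells moved under none of the 13 alternatives.

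The share of Ifng UMIs in T-cell-like cells, ibudilast before PBS, was 77.2% and 81.3% with clusters, 69.7% and 72.6% with doublets kept, 57.9% and 74.6% with each cell weighted alike, 65.7% and 72.6% without the 5 highest cells, and 62.3% and 66.7% with barcodes of 2 lineages counted. It was 66.9% in the ibudilast library with the gate level doubled and 60.6% there when thinned, and 78.4% in the PBS library with the gate level halved. The share of Il12b UMIs in migratory DC-like cells was 59.8% and 58.6% with each cell weighted alike, 61.0% and 62.5% thinned, and 38.6% and 33.0% without the 5 highest cells. It was 39.5% with doublets kept and 64% with the gate level doubled in the ibudilast library, and 59.0% with clusters in the PBS library. Of the alternatives added after seeing the data, leaving out myeloid cells with NK or T marker UMIs gave 80.6% and 85.1% for Ifng and 58.2% and 60.3% for Il12b, and leaving out those with migratory DC marker UMIs gave 73.7% and 81.8%, and 58.9% and 67.8%.

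Ratios reversed with clusters for Ifng (0.475) and Il12rb1 (1.15) in regulatory T-cell-like cells, Ifng (0.984) and Il12b (1.37) in cDC2-like cells and Il12b in monocyte-like cells (0.409). With the gate level doubled, Il12b in cDC2-like cells was 1.02. With each cell weighted alike, Ifng was 0.946 in Cd4 T-cell-like and 0.880 in cDC2-like cells, Il12b 1.53 in cDC1-like cells and Stat4 0.711 in microglia-like cells. Thinned, Il12b was 1.72 in cDC1-like and 2.61 in cDC2-like cells, Il12rb2 0.998 in NK-cell-like cells, Stat4 0.660 in microglia-like cells and Tbx21 0.870 in cDC2-like and 0.705 in monocyte-like cells. With barcodes of 2 lineages counted, Ifng in regulatory T-cell-like cells was 0.567. The cause was not tested. No paired analysis was possible because there is 1 library per group. Classes under 50 cells and genes under 20 UMIs limit what can be read.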
